A study of Mus musculus with 20 samples.

Results

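The genes described here are 7 transcripts of the left ventricle that mark cardiac hypertrophy or encode its myosin heavy chains: Nppb, Myh6, Myh7, Acta1, Ankrd1, Rcan1 and Fhl1. They were taken by mouse gene symbol from a table of 15956 genes, and each of the 7 symbols matched 1 row. The samples were left ventricles of 20 male mice, 5 on each of 4 diets. NP mice ate a diet of normal protein and LP mice one of low protein, while HF mice ate much fat with normal protein and HF + LP mice much fat with low protein. Every mouse is labelled as 18 months old. The study's methods describe a diet period that began in middle age and ended at a younger age than the labels give, and the strain was not given in the sources used here. No transgene or deletion is named for any mouse. The comparison of HF with NP asks how these genes differed with high fat at normal protein. That of HF + LP with HF asks the same of less protein under high fat, and LP with NP and HF + LP with LP complete the square. By the study's table of diets, carbohydrate was lower in the high-fat diets and higher in the low-protein ones. Its part therefore cannot be told apart from that of fat or protein.

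The adult mouse ventricle contracts mainly with the fast alpha-myosin heavy chain, encoded by Myh6, and makes little of the slow beta-chain, encoded by Myh7, which dominates in the fetal ventricle. Under pressure or volume overload, cardiomyocytes return towards a fetal pattern, with more Myh7, more of the natriuretic peptides Nppa and Nppb, and more of the skeletal alpha-actin Acta1. Ankrd1 and Fhl1 encode proteins that bind the titin spring and respond to stretch, and Rcan1 encodes an inhibitor of calcineurin whose own transcription calcineurin and NFAT raise.

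QuantSeq 3′ libraries, which count 1 end per transcript so that long and short transcripts weigh alike, held between 12559607 and 23331907 counts per mouse. The 7 genes together took between 0.629% and 1.1% of a library's counts, and the lowest raw count of any of them in any mouse was 56. Values below are counts normalized to a common library size by edgeR's TMM factors. The labelled tissue was checked against 8 cardiomyocyte markers, which were present in every mouse and summed to between 556716 and 961870 normalized counts. The atrial light chain Myl7 varied widely among mice of the same diet and overlapped between all diets. It ran from 398 to 9293 normalized counts in NP mice, from 20.5 to 33675 in LP mice, from 50.6 to 30515 in HF mice and from 59.8 to 13176 in HF + LP mice. Bmp10, another of 6 atrial markers, was at 1566 to 13692 normalized counts in 3 of the 5 LP mice and at most 110 in every other mouse, the other 2 LP mice included. LP mouse 13 stood apart from its group, with a median correlation of 0.908 with the other LP libraries where every other library had at least 0.944 with its own group. That library had the highest Myl7, the lowest level of the ventricular light chain Myl2 (30491, against at least 80095 in the others) and the highest sum of adipocyte markers (4990). Fold changes that rest on the LP group, and the correlations of Myh7 and Acta1, are therefore given with and without it, and 6 libraries with Myl7 over 5000 were left out in a further fit chosen after these levels had been seen.

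The promoters of 5 of the 7 genes (Nppb, Myh6, Myh7, Acta1 and Ankrd1) held at least 1 copy of the M-CAT element, CATTCC on either strand, a site that TEAD factors are known to bind in muscle genes, within the 250 bases before the transcript start. The element was present in 12.6% of the 32851 promoter windows of the same length in the reference. These 5 windows are shown because their genes share the element. Among all mice, Myh7, Acta1 and Ankrd1 had correlations of 0.50 to 0.73 with each other, and 0.62 to 0.69 without LP mouse 13. With these genes Myh6, which also holds the element, had -0.29 to 0.03, and -0.15 to 0.20 without that mouse. Nppb, which holds it too, had 0.12 to 0.42 with them, and 0.36 to 0.46 without that mouse. Whether the element has a part in these correlations was not tested. Each window is read 5′ to 3′ on the gene's own strand up to the base before the start (RefSeq, GRCm38.p6). Capitals mark the M-CAT element in either orientation. The window of the other annotated start of Myh7 held no copy, which leaves 4 of the 7 genes if that start is read.
Nppb (chr4:147985650-147985899, plus strand): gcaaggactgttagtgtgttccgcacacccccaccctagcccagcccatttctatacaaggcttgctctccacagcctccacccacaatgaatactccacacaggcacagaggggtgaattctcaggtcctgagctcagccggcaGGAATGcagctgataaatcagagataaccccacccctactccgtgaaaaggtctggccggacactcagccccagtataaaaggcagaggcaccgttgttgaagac
Myh6 (chr14:54966608-54966857, minus strand): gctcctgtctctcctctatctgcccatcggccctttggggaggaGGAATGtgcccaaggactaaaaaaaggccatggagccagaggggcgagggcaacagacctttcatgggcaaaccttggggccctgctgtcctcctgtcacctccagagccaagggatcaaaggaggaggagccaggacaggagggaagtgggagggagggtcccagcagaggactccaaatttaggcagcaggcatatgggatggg
Myh7 (chr14:54994627-54994876, minus strand): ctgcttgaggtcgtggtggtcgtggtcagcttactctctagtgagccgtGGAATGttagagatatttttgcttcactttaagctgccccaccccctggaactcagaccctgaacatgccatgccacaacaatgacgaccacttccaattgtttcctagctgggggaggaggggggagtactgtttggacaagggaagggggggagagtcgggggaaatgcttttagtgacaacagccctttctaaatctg
Acta1 (chr8:123894776-123895025, minus strand): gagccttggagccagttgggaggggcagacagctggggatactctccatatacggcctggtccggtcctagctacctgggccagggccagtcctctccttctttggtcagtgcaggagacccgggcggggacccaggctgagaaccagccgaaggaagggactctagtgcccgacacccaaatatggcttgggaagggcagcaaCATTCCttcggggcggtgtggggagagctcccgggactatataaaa
Ankrd1 (chr19:36119845-36120094, minus strand): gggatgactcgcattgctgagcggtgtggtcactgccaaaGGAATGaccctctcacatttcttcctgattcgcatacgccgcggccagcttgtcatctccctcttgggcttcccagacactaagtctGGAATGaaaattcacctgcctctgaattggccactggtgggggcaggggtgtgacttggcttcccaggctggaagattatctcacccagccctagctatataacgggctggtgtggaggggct
The element began 105 bases before the start in Nppb, 206 in Myh6, 201 in Myh7 and 46 in Acta1, and lay at 210 and 123 bases in Ankrd1. The letters AGATAA, which zinc finger factors of cardiac muscle are known to bind, were found on either strand in Nppb and Ankrd1 and in 9.99% of all windows. A CArG box, the site of serum response factor, was found in Acta1, 73 bases before the start, and in Fhl1, against 1.47% of all windows. The thyroid hormone receptor half-site AGGTCA (14% of all windows) and the MEF2 site (2.92%) had no match in any of the 7 windows. Myh7, Rcan1 and Fhl1 have 2 annotated starts each, and the window reaching farthest upstream was read. In the other window of Fhl1 the CArG box was not found. These are letter matches and no binding was measured.

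By the criteria of the study's methods (adjusted p below 0.01 and a mean above 50 normalized counts), none of the 7 genes was called in any comparison by edgeR's quasi-likelihood test. Of all 13991 genes tested, 37 (0.264%) were called between HF and NP, 7 with more counts in HF (0.05%) and 30 with fewer (0.214%). This balance turned without the 6 libraries of high Myl7, when 45 were called, 32 higher and 13 lower, while without LP mouse 13 alone 69 were called, 16 higher and 53 lower. DESeq2, run on the same counts, called 158, with 67 higher and 91 lower, and Myh6 was among them. In HF + LP against LP 14 genes (0.1%) were called, 3 without LP mouse 13, and 0 genes (0%) in HF + LP against HF, in LP against NP and in the interaction of fat and protein. At an unadjusted p under 0.05, 3 of the 7 genes passed between HF and NP (13.1% of all genes), 3 between HF + LP and HF (4.84%), 0 between LP and NP (7.23%), 3 between HF + LP and LP (15.9%) and 2 in the interaction (7.17%). By direction, 2 of the 7 were higher (5.17% of all genes) and 1 lower (7.91%) between HF and NP, and 3 lower (2.43%, against 2.41% higher) between HF + LP and HF. None was higher (5.02%) or lower (2.21%) between LP and NP, 3 were lower (9.66%, against 6.26% higher) between HF + LP and LP, and 2 were lower (4.31%, against 2.86% higher) in the interaction. Without LP mouse 13, 4 of the 7 were lower in the interaction (Nppb, Myh7, Acta1 and Ankrd1; 3.82% of all genes). The HF mice enter both of the first comparisons, so opposite signs there are not separate evidence. DESeq2 called 16 genes in HF + LP against HF, 3 in LP against NP, 81 in HF + LP against LP and 0 in the interaction, none of them among the 7.

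**Figure D1:**
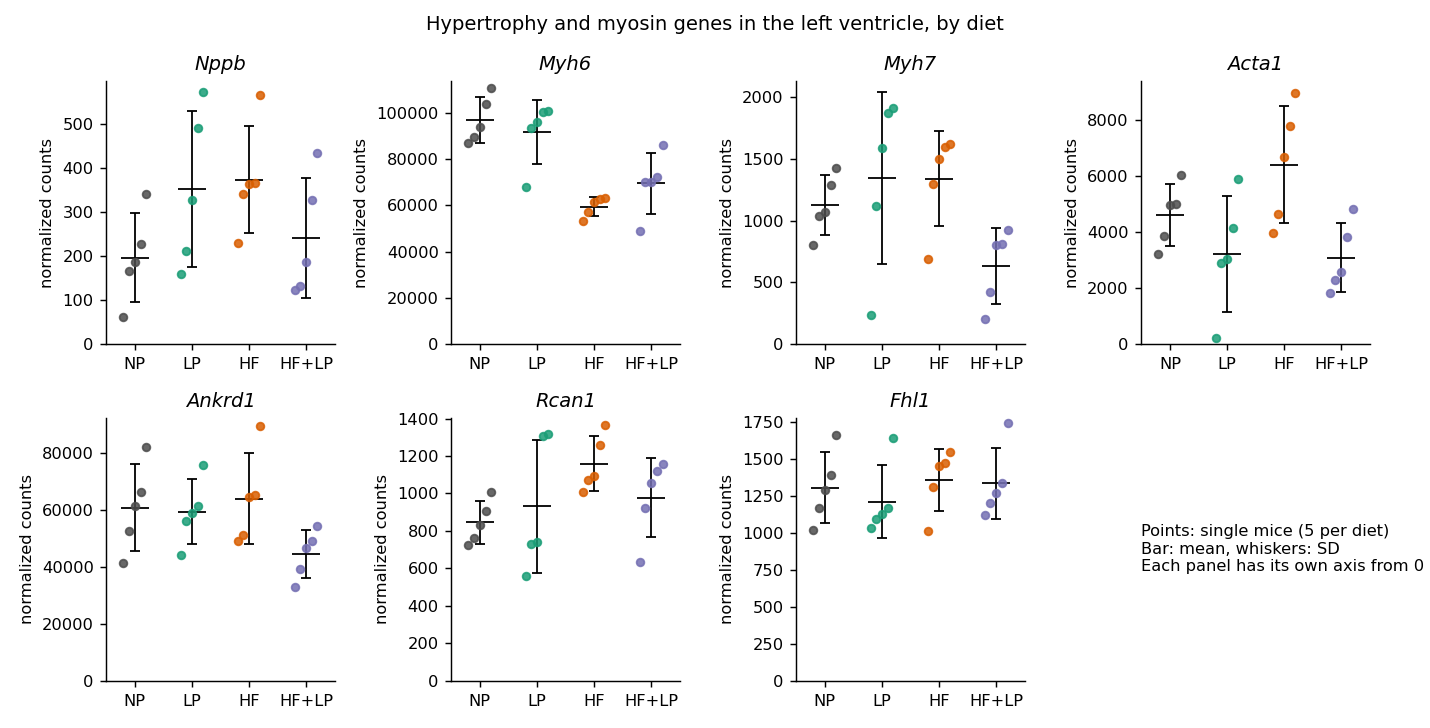
Normalized counts of the 7 genes (vertical axes, each from 0) in each of 20 mice, grouped by diet on the horizontal axis. Points are mice, the short bar is the group mean and the whiskers the SD. All 5 HF mice lie below all 5 NP mice for Myh6, and above them for Rcan1.

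Myh6, the main motor protein gene of the adult ventricle, had the smallest p of the 7 genes in any comparison. Its normalized counts in NP mice were 103541, 86689, 110557, 93623 and 89472. In HF mice they were 63287, 62578, 56916, 61207 and 53248. Every HF mouse lay below every NP mouse, and the groups were separated by a gap larger than the range within HF. The mitochondrial share of a library's counts also separated these mice, at 41.3% to 47.1% in NP and 38.1% to 39.8% in HF, and its part in the difference was not tested. The ratio of HF to NP was 0.614, a log2 fold change of -0.70 (SE 0.13, 95% interval -0.98 to -0.42), with an adjusted p of 0.0124 in edgeR, just outside the 0.01 threshold. It ranked 44th of the 13991 genes by p. DESeq2 gave a log2 fold change of -0.68 and an adjusted p of 1.65e-04, and edgeR gave 0.00869 with genes of at least 10 counts in every library and 0.00459 with the HF and NP groups alone. The adjusted p lay between 0.00448 and 0.0461 when each of the 20 mice was left out in turn, so the side of the 0.01 threshold is decided by single libraries, with -0.74 to -0.65 for the log2 fold change itself. With Myl7 as a covariate it was 0.00876. Myh6 was not called with RLE size factors in place of TMM, with no filter on low counts or with the library-name number as a covariate. Nor was it called with animal number as a replicate block or without the 6 libraries of high Myl7. Non-overlap of the 5 and 5 mice was seen for 5.67% of all genes in this comparison and for 2 of the 7 (Myh6 and Rcan1).

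In LP mice, Myh6 stood at 93456, 100059, 67685, 100723 and 96137 normalized counts. The HF + LP mice had 70191, 72080, 49071, 70057 and 86172. LP mouse 20 was the low value of its group, and it fell within the HF + LP range, so these 2 groups overlapped. The log2 fold change of HF + LP against LP was -0.40 (SE 0.13), with an unadjusted p of 0.0074 and an adjusted p of 0.158, and -0.37 without LP mouse 13 (SE 0.14, adjusted p = 0.284). HF + LP was 0.23 (SE 0.13) above HF on the log2 scale (unadjusted p = 0.106), with 4 of 5 HF + LP mice above every HF mouse and 1 below all of them. LP and NP differed by -0.08 (SE 0.13, 95% interval -0.36 to 0.20), and by -0.11 without LP mouse 13 (SE 0.14). The order of the means was therefore HF (59447 ± 4257), HF + LP (69514 ± 13255), LP (91612 ± 13700) and NP (96776 ± 10009; all SD, n = 5), where LP and NP did not differ beyond their spread, nor did HF and HF + LP.

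Myh6 was set against other cardiomyocyte transcripts of the same library, which removes the common scaling. Against most of the 8 cardiomyocyte markers it separated the high-fat diet from the other diet of the same protein level. The ratios did not overlap for 6 of the 8 between HF and NP and for 7 of the 8 between HF + LP and LP. All 8 share the Myh6 counts and are not separate evidence, and of the normalized counts of all genes 5.67% and 1.87% did not overlap in these comparisons. The exception in both was the calcium release channel Ryr2, which itself was at -0.65 between HF and NP (SE 0.19, adjusted p = 0.104), and per count of which Myh6 ran from 4.63 to 9.82 in NP and from 5.38 to 7.68 in HF mice. Between HF and NP the ratio to Myl3 overlapped as well. Per count of Actc1, the cardiac alpha-actin, Myh6 ran from 0.382 to 0.485 in NP and from 0.382 to 0.578 in LP mice. It ran from 0.295 to 0.347 in HF and from 0.279 to 0.362 in HF + LP mice, so that all 10 mice on high fat lay below all 10 on the other diets. Per count of Tnnt2, cardiac troponin T, the ranges were 0.753 to 1.00 in NP and 0.558 to 0.682 in HF, and 0.849 to 1.33 in LP and 0.574 to 0.763 in HF + LP, again with no overlap within either protein level. Per count of Myl2, they were 0.766 to 1.17 in NP and 0.504 to 0.755 in HF, and 0.730 to 3.28 in LP (the highest being LP mouse 13) and 0.556 to 0.645 in HF + LP. These ratios were computed after the levels had been seen and carry no test. Tnnt2, Actc1 and Myl2 did not pass the threshold between HF and NP themselves, at -0.28 for Tnnt2, -0.20 for Actc1 and -0.14 for Myl2 on the log2 scale, with unadjusted p of 0.0405, 0.145 and 0.599. Between HF + LP and LP they were at 0.16, 0.12 and 0.33 (unadjusted p = 0.227, 0.376 and 0.213), and at 0.09, 0.13 and 0.10 without LP mouse 13, where the counts of Myh6 themselves overlapped.

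Myh7, the slow fetal myosin, was far less abundant. In NP mice its normalized counts were 1073, 1035, 1428, 1284 and 801. In HF mice they were 1598, 1617, 690, 1502 and 1295. In HF + LP mice they were 806, 924, 810, 204 and 424. HF mouse 3 lay below every NP mouse while 3 HF mice lay above all of them, so HF and NP overlapped fully and their log2 fold change of 0.25 (SE 0.42) had an adjusted p of 0.874. HF + LP lay below HF by 1.08 on the log2 scale (SE 0.42, 95% interval -1.96 to -0.20), a ratio of 0.473, with an unadjusted p of 0.0186 and an adjusted p of 0.779. Only the HF value of 690 reached into the HF + LP range.

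LP mice had Myh7 at 1585, 235, 1117, 1910 and 1867 normalized counts, where the value of 235 is LP mouse 13. Against LP, HF + LP differed by -1.08 (SE 0.42, unadjusted p = 0.0186, adjusted p = 0.212). Without LP mouse 13 the difference was -1.35 (SE 0.33, unadjusted p = 5.9e-04, adjusted p = 0.0913). In the interaction, the effect of fat at low protein minus that at normal protein, Myh7 had -1.33 (SE 0.59, unadjusted p = 0.0356, adjusted p = 0.687), and -1.61 without LP mouse 13 (SE 0.45, unadjusted p = 0.00212, adjusted p = 0.671). LP against NP gave 0.25 (SE 0.42), and 0.53 without LP mouse 13 (SE 0.33, unadjusted p = 0.125). HF + LP thus had the lowest mean Myh7 (634 ± 306, SD, n = 5) of the 4 diets, while NP (1124 ± 242), HF (1340 ± 385) and LP (1343 ± 695) did not differ beyond their spread.

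The share of Myh7 in the sum of Myh6 and Myh7 counts, which no library scaling can move, summarizes the isoform balance. It was 1.03%, 1.18%, 1.28%, 1.35% and 0.887% in NP mice. In HF mice it was 2.46%, 2.52%, 1.2%, 2.4% and 2.37%. Of the HF values 4 lay above every NP value, and that of HF mouse 3 lay inside the NP range. The mean share was 1.14% ± 0.189 in NP and 2.19% ± 0.558 in HF (SD, n = 5), a difference of 0.92 in log2(Myh7/Myh6), with p = 0.0238 in a two-sided exact permutation test and 0.0476 after Benjamini-Hochberg adjustment over 4 comparisons. The smallest p that 5 against 5 mice allow is 0.00794.

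In HF + LP mice the share was 1.14%, 1.27%, 1.62%, 0.290% and 0.489%, with a mean of 0.961% ± 0.556 (SD, n = 5). It was lower than in HF by 1.42 in log2(Myh7/Myh6) (exact permutation p = 0.0238, adjusted p = 0.0476). Both calls sit at the edge of the 0.05 threshold. Leaving out 1 mouse at a time gave adjusted p from 0.0317 to 0.0952 for HF against NP and from 0.0317 to 0.111 for HF + LP against HF, and each passed in 3 of 10 such fits. In LP mice the share was 1.67%, 0.235%, 1.62%, 1.86% and 1.91%, with LP mouse 13 again the low value. LP and NP differed by 0.06 in log2(Myh7/Myh6) (exact permutation p = 0.992), and by 0.65 without LP mouse 13 (exact permutation p = 0.00794, adjusted p = 0.0317), when every remaining LP mouse lay above every NP mouse. HF + LP against LP gave -0.56 (exact permutation p = 0.429), and -1.15 without LP mouse 13 (exact permutation p = 0.0476, adjusted p = 0.0476).

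**Figure D2:**
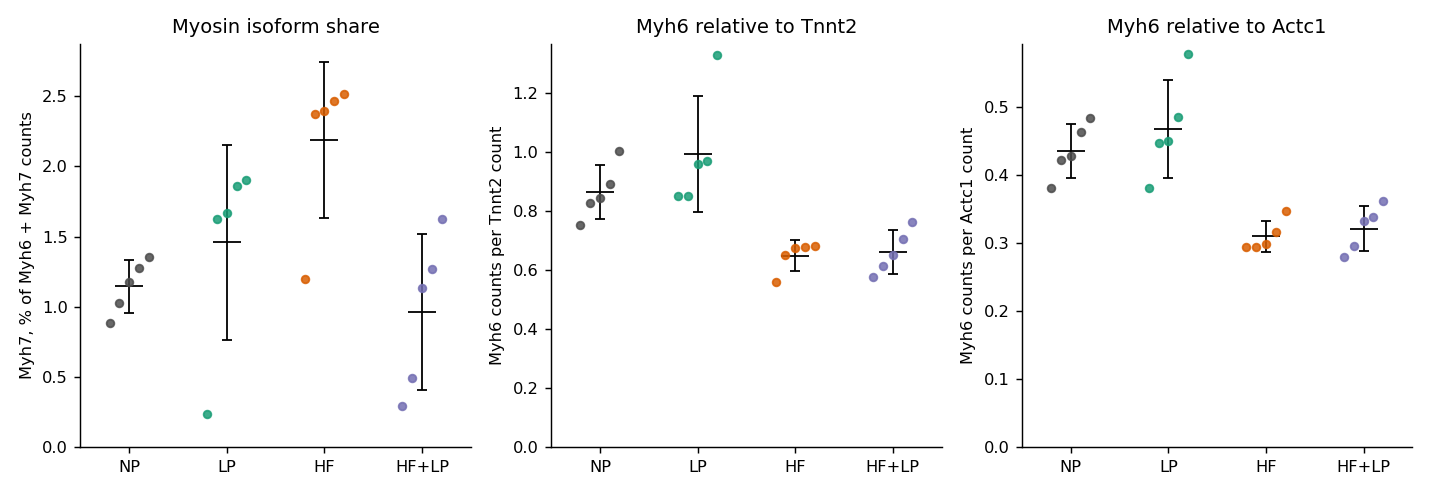
Left, Myh7 as a percent of Myh6 plus Myh7 counts; middle and right, Myh6 counts per count of Tnnt2 and of Actc1, each by diet with 1 point per mouse, the mean as a bar and the SD as whiskers. The Myh7 share is at least 2.37% in 4 of 5 HF mice and at most 1.91% in all other mice, and the 10 mice on high fat have the lowest Myh6 per Actc1.

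Myh6 and Myh7 lie in tandem on the minus strand of chromosome 14 (Myh6 at chr14:54941921-54966927, Myh7 at chr14:54970684-54994626, GRCm38), 3756 bases apart. Within the last 500 bases of their coding transcripts, where 3′ reads fall, 14.6% of the 75-base stretches of Myh6 and 16.6% of those of Myh7 were identical to a stretch of the other, so reads from those stretches cannot be assigned by sequence. How the authors' counting treated such reads was not given in the sources used here. The 3′ end of Myh7 also overlaps Mhrt, a long noncoding RNA on the opposite strand that is known to be made in the adult heart. Mhrt ran from 1306 to 3626 normalized counts in NP and from 699 to 1446 in HF mice (log2 fold change -1.32, SE 0.27, adjusted p = 0.0196 in edgeR). Whether the counting used the strand is not given, so reads from Myh7 and Mhrt in the shared stretch cannot be told apart.

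Nppb, which encodes the B-type natriuretic peptide that ventricles secrete when their walls are stretched, was the least abundant of the 7. NP mice had 166, 188, 61.6, 340 and 227 normalized counts. HF mice had 365, 341, 363, 230 and 566. Of the 5 HF mice, 4 lay above every NP mouse, and the other inside the NP range. The ratio of HF to NP was 1.89, a log2 fold change of 0.92 (SE 0.42, 95% interval 0.05 to 1.8), with an unadjusted p of 0.0399 and an adjusted p of 0.352.

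In HF + LP mice Nppb stood at 326, 187, 435, 131 and 123 normalized counts. Against HF its log2 fold change was -0.63 (SE 0.42, 95% interval -1.5 to 0.23, adjusted p = 0.9995). LP mice had 491, 327, 160, 211 and 571, a log2 fold change over NP of 0.83 (SE 0.42, unadjusted p = 0.0611), and 0.86 without LP mouse 13 (SE 0.45, unadjusted p = 0.0719). The means were 196 ± 101 in NP, 240 ± 136 in HF + LP, 352 ± 177 in LP and 373 ± 121 in HF mice (SD, n = 5), neighbours in that order lying within their spread. The interaction was -1.47 (SE 0.59, 95% interval -2.70 to -0.23, unadjusted p = 0.022, adjusted p = 0.683). Without LP mouse 13 it was -1.5 (unadjusted p = 0.0266), and without the 6 libraries of high Myl7 -2.03 (unadjusted p = 0.0162, adjusted p = 0.416).

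The neighbouring Nppa gene, 13516 bases from Nppb on chromosome 4 and encoding the atrial natriuretic peptide, is made by atrial muscle at all times. Its normalized counts ran from 1676 to 40028 in NP, 2145 to 180285 in LP, 1766 to 140129 in HF and 755 to 57473 in HF + LP mice, so that every pair of diets overlapped. Across the 20 mice its log2 level had a correlation of 0.94 with that of Myl7, and 0.96 after each diet's mean was removed. For Nppb the same correlation was -0.06, for Ankrd1 0.18, for Fhl1 0.26 and for Myh6 0.05, while Myh7 had -0.26, Acta1 -0.33 and Rcan1 -0.37. After each diet's mean was removed it was -0.29 for Myh6, -0.45 for Myh7, -0.39 for Acta1 and -0.34 for Rcan1, and between -0.04 and 0.34 for the other 3. These within-diet values without LP mouse 13 were -0.38 for Myh6, -0.32 for Myh7, -0.22 for Acta1 and -0.29 for Rcan1. These are descriptions over libraries that share their normalization. In bulk tissue, a change in the share of a cell type and in its RNA per cell cannot be told apart, and the part of atrial muscle in the Nppa differences was not tested.

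**Figure D3:**
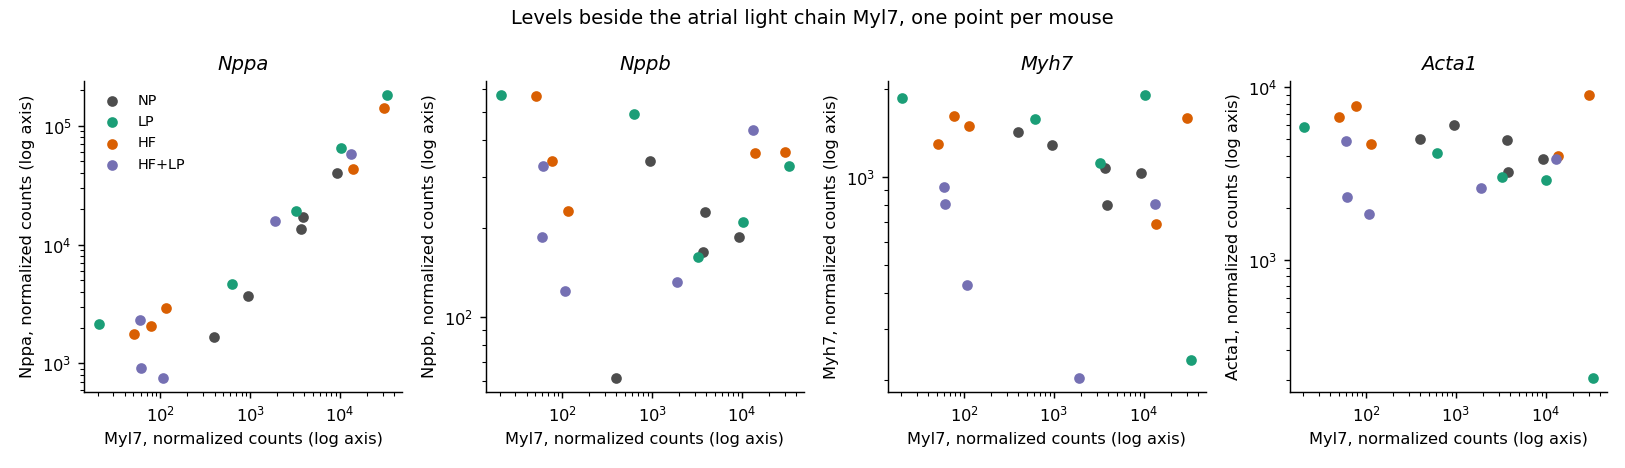
Normalized counts of Nppa, Nppb, Myh7 and Acta1 (vertical log axes) against those of the atrial light chain Myl7 (horizontal log axis), 1 point per mouse coloured by diet. The correlation with Myl7 over all 20 mice is 0.94 for Nppa and -0.06 for Nppb, and LP mouse 13, at the far right, has the lowest Acta1 (206).

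Acta1, skeletal alpha-actin, which the adult heart holds low and hypertrophic hearts raise, varied widely among mice. NP mice had 4956, 3850, 4992, 6038 and 3218 normalized counts. HF mice had 8959, 7780, 3959, 4653 and 6670. HF + LP mice had 2301, 4844, 3838, 2583 and 1841. Of the 5 HF + LP mice, 4 lay below every HF mouse. The log2 fold change of HF + LP against HF was -1.06 (SE 0.48, 95% interval -2.06 to -0.05), a ratio of 0.481, with an unadjusted p of 0.0411 and an adjusted p of 0.978. HF was 0.47 above NP on the log2 scale (SE 0.48, adjusted p = 0.765), with 3 of 5 HF mice above every NP mouse.

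In the LP group Acta1 was at 4138, 206, 3025, 2885 and 5887 normalized counts, a range in which LP mouse 13 lay at 206. LP against NP gave -0.52 (SE 0.48, adjusted p = 0.894), and -0.20 without LP mouse 13 (SE 0.30). HF + LP against LP gave -0.07 (SE 0.48), and -0.38 without it (SE 0.29). The interaction was -0.54 (SE 0.68, unadjusted p = 0.434), and without it -0.86 (SE 0.40, unadjusted p = 0.0463, adjusted p = 0.799). Markers of skeletal muscle, the other tissue that expresses Acta1, summed to between 29.2 and 114 normalized counts per mouse over 6 listed markers of 9. The part of such muscle in the Acta1 counts was not tested.

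Ankrd1, a stretch-responsive titin-binding repressor and one of the most abundant transcripts of the 7, ran from 41504 to 82340 normalized counts in NP, 44251 to 75959 in LP, 49296 to 89672 in HF and 33135 to 54406 in HF + LP mice. Of the 5 HF + LP mice, 3 lay below every HF mouse. The log2 fold change of HF + LP against HF was -0.52 (SE 0.19, 95% interval -0.93 to -0.12), with an unadjusted p of 0.0132 and an adjusted p of 0.684. Against LP it was -0.42 (SE 0.19, unadjusted p = 0.0437, adjusted p = 0.30), and -0.51 without LP mouse 13 (SE 0.20, unadjusted p = 0.0181, adjusted p = 0.296). The interaction was -0.49 (SE 0.27, unadjusted p = 0.0864), and without that mouse -0.58 (SE 0.27, unadjusted p = 0.0441, adjusted p = 0.796). Against NP neither HF (0.08, 95% interval -0.33 to 0.48) nor LP (-0.03, 95% interval -0.43 to 0.37, and 0.05 without LP mouse 13) was set apart. The HF + LP mean of 44565 ± 8393 was the lowest of the 4 and those of LP (59432 ± 11384), NP (60817 ± 15272) and HF (64110 ± 16107; all SD, n = 5) lay within their spread.

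Fhl1, a LIM domain protein that binds the titin spring, was the most even of the 7. Its means were 1212 ± 245 in LP, 1307 ± 243 in NP, 1335 ± 241 in HF + LP and 1359 ± 212 in HF mice (SD, n = 5), and all 4 groups overlapped. No comparison had a log2 fold change beyond 0.14 in size, with intervals of -0.27 to 0.38 for HF against NP and -0.35 to 0.30 for HF + LP against HF. Changes larger than those bounds lay outside the 95% interval of these mice. The highest value in LP, 1641, was LP mouse 13, without which Fhl1 was at -0.25 in LP against NP (SE 0.14, unadjusted p = 0.102) and at 0.27 in HF + LP against LP (SE 0.14, unadjusted p = 0.0778).

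Rcan1, the calcineurin inhibitor, ran from 1008 to 1364 normalized counts in HF and from 723 to 1006 in NP mice. The groups did not overlap, but the lowest HF value (1008) and the highest NP value (1006) nearly touched. The log2 fold change was 0.45 (SE 0.21, 95% interval 0.02 to 0.88), a ratio of 1.37, with an unadjusted p of 0.0399 and an adjusted p of 0.352. LP mice fell apart into 2 high values, 1305 and 1319, and 3 between 559 and 742, which together spanned the ranges of NP and HF + LP mice. LP against NP gave 0.14 (SE 0.21), and 0.22 without LP mouse 13 (SE 0.22). HF + LP mice ran from 636 to 1155, and their difference from HF was -0.24 (SE 0.21, adjusted p = 0.9995).

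**Figure D4:**
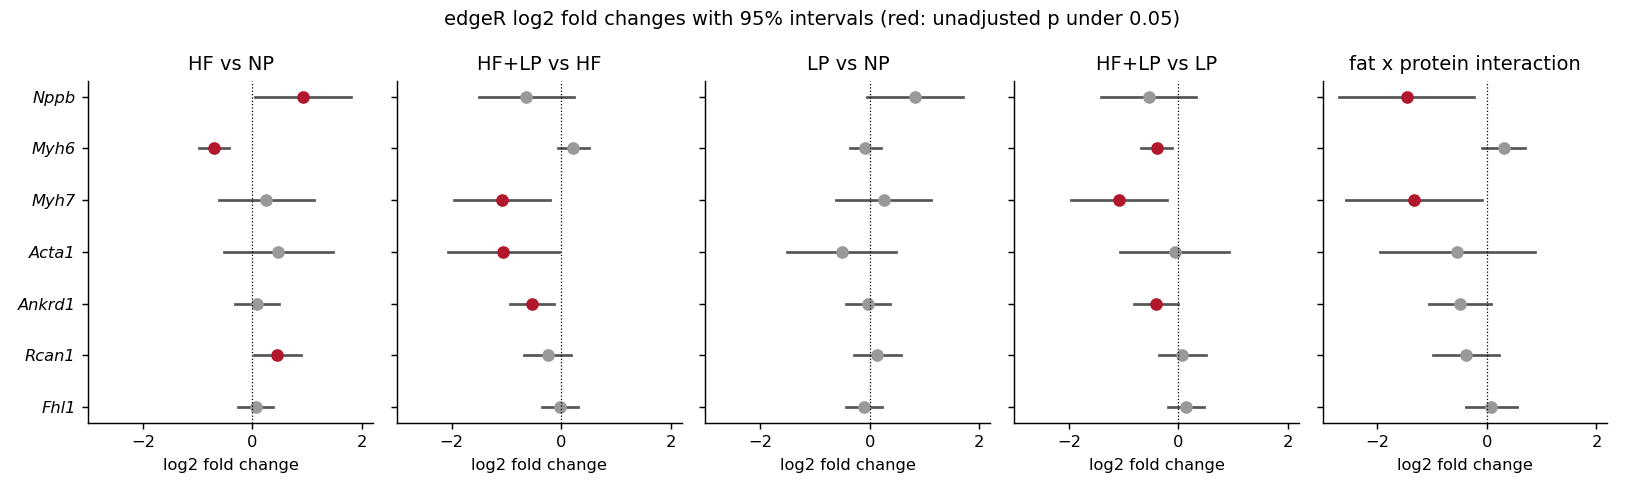
Log2 fold changes of the 7 genes from edgeR (points) with 95% intervals (lines), in 1 panel per comparison; red points have an unadjusted p under 0.05. Myh6 between HF and NP has the interval farthest from 0 relative to its width, and Myh7, Acta1 and Ankrd1 lie below 0 between HF + LP and HF.

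Side by side, the 7 genes had a median log2 fold change of 0.25 between HF and NP, where the median of all genes was -0.00, with 6 higher and Myh6 lower. In HF + LP against HF the median was -0.52 against 0.02 for all genes, with 6 lower and Myh6 higher. Between LP and NP it was -0.03 against 0.02, with 3 higher and 4 lower, and without LP mouse 13 it was 0.05 against 0.01, with 4 higher and 3 lower. In HF + LP against LP it was -0.40 against -0.03, with 2 higher and 5 lower, and without that mouse -0.38 against -0.03, with 1 higher and 6 lower.

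Across the 20 mice, Myh7 and Acta1 had a correlation of 0.73 on the log2 scale, and 0.83 after each diet's mean was removed. Myh7 and Ankrd1 had 0.69 and 0.55 in the same way, while Myh6 and Myh7 had 0.03 and -0.08, so the alpha- and beta-chains did not mirror each other from mouse to mouse. Fhl1 went the other way from Myh7, at -0.54 and -0.64. Without LP mouse 13, which had the lowest Acta1 of all mice, the values were 0.63 and 0.58 for Myh7 with Acta1, 0.69 and 0.46 for Myh7 with Ankrd1, and -0.46 and -0.46 for Myh7 with Fhl1. For Myh6 with Myh7 they were 0.20 and 0.08. The genes whose pattern over the 20 mice was most like each member were, for Myh6, Lamb2 (0.95), BC002189 (0.90) and Fto (0.89). For Myh7 they were Gnb3 (0.91), Cnksr1 (0.88) and Mybpc2 (0.84), the last a fast skeletal myosin-binding protein. Without LP mouse 13 these correlations were 0.90, 0.83 and 0.83. For Acta1 the most like genes were Aqp8 (0.91), 1500009L16Rik (0.90) and the collagen gene Col8a1 (0.88), the 3 lying between 0.70 and 0.74 without LP mouse 13. Ankrd1 was most like Cnksr1 (0.76), Cilp (0.73) and Postn (0.70), the last 2 being matrix genes of cardiac fibroblasts. For Nppb the highest were Rab23 (0.72), Plxnd1 (0.71) and Plekho1 (0.70), for Rcan1 Cox19 (0.87), Elk3 (0.84) and Ppp1r3c (0.84), and for Fhl1 Sec23a (0.90), Apmap (0.88) and Ube2j2 (0.87). These correlations rest on shared libraries and come from a search over all tested genes.

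The 3 Myh6-like genes were picked by correlation over all 20 mice, with the differences between diets left in. A difference between HF and NP in them is therefore partly built in. Among them, BC002189 was called between HF and NP (0.264% of all genes). It ran from 424 to 503 normalized counts in NP and from 153 to 222 in HF mice, a log2 fold change of -1.29 (SE 0.16, adjusted p = 2.52e-04). Lamb2, a laminin chain of the basement membrane, ran from 2978 to 3487 in NP and from 1750 to 2356 in HF mice (log2 fold change -0.65, SE 0.13, adjusted p = 0.0172), which like Myh6 fell short of the 0.01 threshold. Fto was not called either, at -0.37 between HF and NP (SE 0.11, adjusted p = 0.0992 in edgeR).

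Of the 27 tested genes of a fetal gene program and stress marker list, which holds 6 of the 7 genes, 0 were called between HF and NP, but 8 were higher and 1 lower at an unadjusted p under 0.05 (5.17% and 7.91% of all genes). The list median was 0.25. Beside Nppb and Rcan1 the 6 higher genes were Gdf15, a stress cytokine (1.53, SE 0.39, adjusted p = 0.0578), Sprr1a, induced in stressed cardiomyocytes (1.58, SE 0.47, at a mean of 8.57 normalized counts), Nmrk2, a kinase of NAD synthesis (0.73, SE 0.23), Postn (0.52, SE 0.20), Cilp (0.49, SE 0.22) and Pfkp (0.33, SE 0.15). The 1 lower gene was Acta2, smooth muscle actin (-0.76, SE 0.35). In the same comparison, 4 of 6 myeloid markers and 1 of 7 fibroblast markers (Col3a1 at 0.87, SE 0.19, adjusted p = 0.0217) were higher and 3 of 6 smooth muscle and pericyte markers were lower at an unadjusted p under 0.05, and their part in the list's values was not tested.

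For HF + LP against HF the same list had 0 called, 6 lower and 1 higher at an unadjusted p under 0.05 (2.43% and 2.41% of all genes), with a median of -0.24. Cilp, a matrix protein of fibroblasts, had the smallest p, at -1.29 (SE 0.22, adjusted p = 0.0841), followed by Postn, periostin, at -0.89 (SE 0.21, adjusted p = 0.217). Cilp ran from 264 to 425 normalized counts in HF and from 89.7 to 174 in HF + LP mice, and Postn from 268 to 420 and from 109 to 247, both without overlap, as for 1.18% of all genes. Gdf15 was at -0.93 (SE 0.38, adjusted p = 0.840) and Acta2 at 0.96 (SE 0.35). The 3 others were Ankrd1, Myh7 and Acta1 as given above. Of 7 fibroblast markers, 2 were lower at an unadjusted p under 0.05 in this comparison.

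Of the 13 tested genes of the natriuretic peptide pathway, Nppb alone passed an unadjusted p under 0.05 between HF and NP (5.17% of all genes higher, 7.91% lower), and the receptors Npr1 (-0.23, unadjusted p = 0.207) and Npr2 (-0.26, unadjusted p = 0.116) did not. Only Mme, the neprilysin that degrades natriuretic peptides, did so between HF + LP and HF, at 0.38 (SE 0.14, adjusted p = 0.714), against 2.41% of all genes higher and 2.43% lower. Nppc and Pde2a were not among the listed genes.

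Among 17 genes of myosin heavy and light chains and their partners Mylk3, a kinase, and Mybpc3, a myosin-binding protein, 3 were lower between HF and NP at an unadjusted p under 0.05 (7.91% of all genes) and 0 were higher (5.17%). Beside Myh6 these were Myh11, the smooth muscle heavy chain (-1.39, SE 0.32, adjusted p = 0.0341), and Myh7b, an ancient slow myosin related to Myh7 (-0.98, SE 0.32, adjusted p = 0.149). Myh11 is also among the 3 of 6 smooth muscle and pericyte markers that were lower in that comparison. In HF + LP against HF, Myh7 was the 1 lower and 0 were higher (2.43% and 2.41% of all genes). Between HF + LP and LP, 4 were lower (Myh11, Myl9, Myh7 and Myh6) and 1 higher (Myl6), against 9.66% and 6.26% of all genes. With LP mouse 13 left out, 5 were lower (Myh11, Myh7, Myh7b, Myh6 and Mybpc3) and 1 higher (7.81% and 4.5% of all genes), and Myl9 no longer passed (-0.49, SE 0.38, unadjusted p = 0.208). In the comparison of all mice, 3 of 6 smooth muscle and pericyte markers and 5 of 5 adipocyte markers were lower at that level, and 3 of 6 and 4 of 5 without LP mouse 13. The smooth muscle and pericyte markers summed to 6222 to 9041 normalized counts in LP and 7381 to 9821 in HF + LP mice, the adipocyte markers to 72.8 to 4990 and 12.3 to 185, and the part of these cells in the list's values was not tested.

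Thyroid hormone is the classical regulator of the Myh6 and Myh7 balance. Of 17 tested genes on that list, between HF and NP 1 was higher and 3 lower at an unadjusted p under 0.05 (5.17% and 7.91% of all genes). Dio2, the deiodinase that makes active thyroid hormone, was at 0.48 (SE 0.23), Sox6, a repressor of slow myosin genes, at -0.51 (SE 0.17, adjusted p = 0.145), and the pacemaker channel Hcn2 at -0.56 (SE 0.22). Of 3 tested markers of the conduction system, 2 were lower in this comparison (Cntn2 and Cacna1g), the 5 listed ones summing to 178 to 299 normalized counts in NP and 84.3 to 274 in HF mice, and the part of those cells was not tested. Between HF + LP and HF, Dio2 was at -1.0 (SE 0.23, unadjusted p = 3.42e-04, adjusted p = 0.217) and Sox6 at 0.39 (SE 0.17). The receptors Thra and Thrb and the targets Atp2a2 and Pln did not pass an unadjusted p under 0.05 in either comparison.

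Calcineurin dephosphorylates NFAT factors, which then act with GATA4 on hypertrophic genes. Of its 19 listed genes, 1 was called between HF and NP (0.264% of all genes): Nfatc2 fell by 0.65 on the log2 scale (SE 0.12, adjusted p = 0.00645). At an unadjusted p under 0.05, 2 were higher and 2 lower (5.17% and 7.91% of all genes). Rcan1 was among the higher genes, and the calcineurin inhibitor Cabin1 was among the lower ones (-0.38, SE 0.12, adjusted p = 0.129). None of the 19 passed it between HF + LP and HF, where 2.41% of all genes were higher and 2.43% lower. Of 21 transcription factors and their repressors, 3 were lower between HF and NP at that level (7.91% of all genes): Hdac4, a repressor of MEF2 (-0.68, SE 0.13, adjusted p = 0.0119), Mrtfb (-0.28, SE 0.11) and Nkx2-5 (-0.30, SE 0.13). Of 19 genes of titin and stretch sensing, 3 were lower (Ttn at -0.86, SE 0.40, Rbm20 at -0.40, SE 0.16, and Actn2 at -0.41, SE 0.14) and 0 higher, against 7.91% and 5.17% of all genes. Between HF + LP and HF the 1 lower gene was Ankrd1, where 2.43% of all genes were lower.

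Between LP and NP, 2 genes of titin and stretch sensing were lower at an unadjusted p under 0.05, Tcap (-0.79, SE 0.28) and Fhl2 (-0.32, SE 0.13), and 0 higher (2.21% and 5.02% of all genes). Without LP mouse 13, Tcap (-0.76, SE 0.31) still passed and Fhl2 (-0.26, SE 0.12, unadjusted p = 0.0518) did not. Nfatc2 was at -0.33 (SE 0.11) and Hdac4 at -0.45 (SE 0.13), in a comparison that shares its NP mice with that of HF, while Rcan2 was at -0.22 (SE 0.10) and Nfatc1 at 0.30 (SE 0.12). Without that mouse they were at -0.36, -0.42, -0.17 and 0.35, of which Rcan2 no longer passed (unadjusted p = 0.117). Thrsp, a gene of fat synthesis that thyroid hormone induces, was at 1.47 (SE 0.48, adjusted p = 0.498), in a group where adipocyte markers ran up to 4990 normalized counts, and at 0.33 without LP mouse 13 (SE 0.24, unadjusted p = 0.191). The interaction had an adjusted p of at least 0.614 for every gene of the 7 lists that passed an unadjusted p under 0.05, and of at least 0.671 without that mouse.

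**Figure D5:**
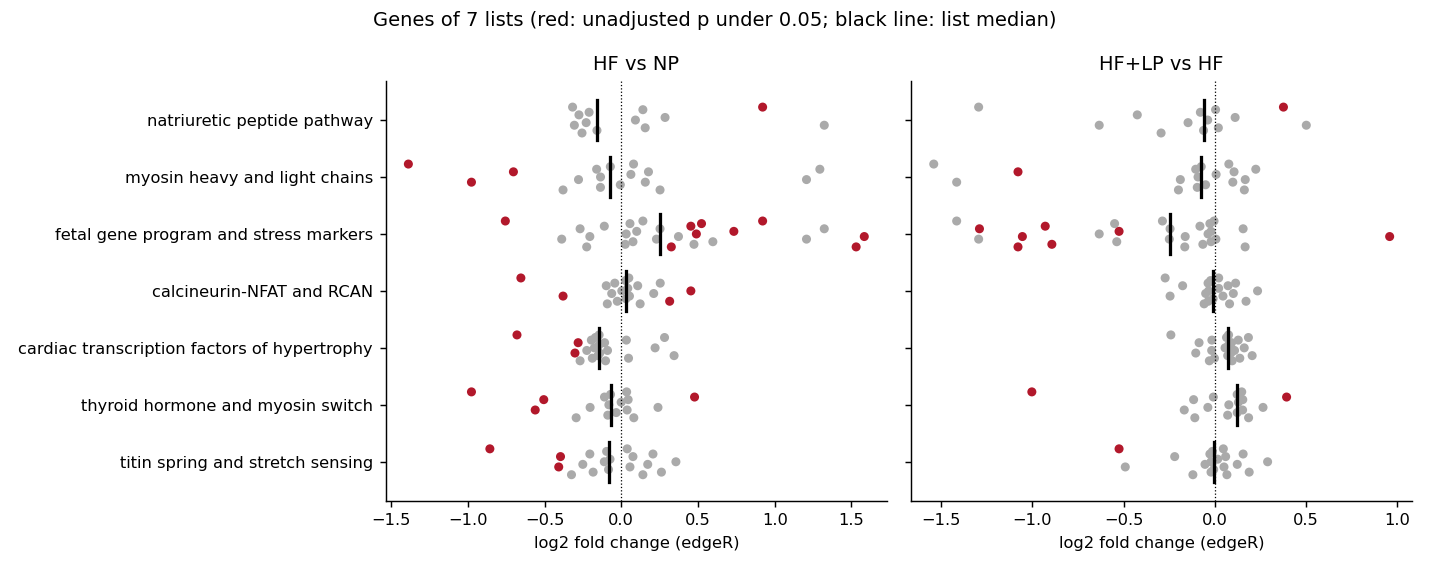
Log2 fold changes (horizontal axis) of the tested genes of 7 lists between HF and NP (left) and between HF + LP and HF (right), 1 point per gene, red where the unadjusted p is under 0.05, with each list's median as a black line. The fetal and stress marker list has its median at 0.25 on the left and -0.24 on the right.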

How the data were processed

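The authors prepared QuantSeq 3′ mRNA libraries from left ventricle, sequenced them and deposited whole-number read counts per gene, unnormalized, for 20 mice. The submitters' processing notes name GRCm38 and DESeq2 1.22.2, and the counting program and its use of strand were not given in the sources used here. Counts were tested with edgeR 4.0.16 in R 4.3.3 (quasi-likelihood, TMM factors, filterByExpr, 13991 genes tested, all 4 diets in 1 fit), with Benjamini-Hochberg adjustment over all genes, and DESeq2 1.42.0 served as an alternative. In simulated counts for HF against NP, 181 of 200 genes changed by 1.5 on the log2 scale were recovered. The largest difference of the 7 genes between diets in the main fit was 1.08 in size, so this recovery does not give the power for them. The labels give separate animals. That of LP mouse 5 alone also carries a sample number, which is not explained in the sources used here. Correlations used edgeR log2 CPM values with a prior count of 2. The 7 genes are described in full, with the called genes of 7 fixed lists (otherwise up to 4 with the smallest p) and the 3 genes most like each member. Further genes of the lists, Mhrt and Myl7 were named after their values were seen. Other genes of the lists enter the counts and medians but are not reported by name here. The genes, lists and tests were chosen with earlier results of these data known. The exact permutation test compared log2(Myh7/Myh6) between groups. Alternatives changed the scaling, filter, threshold, covariates and mice.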

Additional observations from a re-analysis of the deposited data

Results flagged for a closer look

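A gap test (Dixon, 95% level, groups of 5) was run on 32 group and value combinations: the 7 genes and the Myh7 share in each diet. It marked 4 single mice as far from the rest of their group, and chance alone marks about 1 in 20 such groups. LP mouse 20 had Myh6 at 67685 normalized counts, where the nearest other LP mouse had 93456. LP mouse 13 had Fhl1 at 1641 (nearest 1167) and a Myh7 share of 0.235% of Myh6 plus Myh7 counts (nearest 1.62%). HF mouse 3 had a Myh7 share of 1.2%, where the other HF mice had at least 2.37%. In HF mouse 3 Myl7 was at 13819 normalized counts, and in LP mouse 13 at 33675. The part of atrial muscle in these values was not tested.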

How the results depend on the processing

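Between HF and NP the number of genes called moved from 37 to 157 at an adjusted p below 0.05, to 158 with DESeq2 (67 higher, 91 lower, against 7 and 30), to 61 with the 2 groups alone, to 45 without the 6 libraries of high Myl7 (32 higher, 13 lower), to 45 with Myl7 as a covariate (10 higher, 35 lower), to 2 with animal number as a replicate block, and between 20 and 69 when 1 mouse was left out (69 without LP mouse 13). The count of the 7 genes called moved from 0 to 1, Myh6 each time, at an adjusted p below 0.05, with DESeq2 and with at least 10 counts in every library. It did so too with the 2 groups alone and with Myl7 as a covariate. When 1 mouse was left out it lay between 0 and 1 (1 without LP mouse 13, LP mouse 20, HF + LP mouse 3 or HF + LP mouse 5). It stayed at 0 with RLE size factors, no filter on low counts, the library-name number as a covariate, the replicate block and without the high-Myl7 libraries. In HF + LP against HF, DESeq2 called 16 genes, leaving out the 6 libraries of high Myl7 gave 18, and leaving out 1 mouse gave 0 to 1. In LP against NP DESeq2 called 3. In HF + LP against LP the count of 14 became 45 at an adjusted p below 0.05, 81 with DESeq2, 5 with the library-name number or Myl7 as a covariate, 2 without the high-Myl7 libraries, 0 with the replicate block or the 2 groups alone, and 1 to 16 with 1 mouse left out (3 without LP mouse 13).

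For log2(Myh7/Myh6), HF against NP gave 1.04 as a difference of medians (adjusted p = 0.0952), 0.92 when permuted within library-name number (exact permutation, adjusted p = 0.10), 1.14 without the high-Myl7 libraries (exact permutation, adjusted p = 0.0762), 0.73 over 3 same-numbered pairs in the replicate block (exact sign-flip p = 0.50, smallest possible 0.25) and 0.83 to 1.13 with 1 mouse left out. HF + LP against HF gave -1.10, -1.42, -1.88 and -1.42 in the same order (adjusted p = 0.0952, 0.10 and 0.0762, and 0.125 over 5 pairs by exact sign-flip, smallest possible 0.0625), and -1.67 to -1.05 with 1 mouse left out. LP against NP ran from -0.11 to 0.65 and HF + LP against LP from -1.15 to -0.19. The difference of medians used all mice and permutations, the other losses came with fewer permutations or mice, and the cause was not tested.

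Of 308 log2 fold changes of the 7 genes under other settings, 297 kept their direction and side of the threshold, 4 newly passed (Myh6, HF against NP) and 7 changed sign. With the replicate block, Myh7 was at -0.0058 in HF against NP, Ankrd1 at 0.0643 in LP against NP and Rcan1 at -0.38 in HF + LP against LP. Without the high-Myl7 libraries, Ankrd1 (-5.15e-04) and Fhl1 (-0.028) in HF against NP, Fhl1 in HF + LP against HF (0.0505) and Rcan1 in HF + LP against LP (-0.21) changed sign. With 1 mouse left out, 20 of 700 changed sign, within -0.38 to 0.27 for Acta1 and -0.0837 to 0.23 for Rcan1 in HF + LP against LP, -0.0755 to 0.21 for Ankrd1 in HF against NP, -0.14 to 0.10 for Ankrd1, -0.12 to 0.0154 for Myh6 and -0.0233 to 0.28 for Rcan1 in LP against NP, and -0.0203 to 0.16 (HF against NP), -0.14 to 0.0296 (HF + LP against HF) and -0.0306 to 0.21 (interaction) for Fhl1. Same-numbered mice did not vary together in the comparisons with at least 3 pairs (mean correlation -0.04 over 5 pairs of HF and HF + LP, 1 of 5 best with its own number, and -0.24 over 3 pairs of HF and NP; it was 0.18 over 2 pairs of LP and HF + LP and 0.21 in 1 pair of LP and NP), so the block shares only a number. Leaving out the high-Myl7 libraries and Myl7 as a covariate were chosen after seeing the data. With 5 mice a diet, log2 differences of Nppb, Myh7 and Acta1 had standard errors between 0.42 and 0.48 in the 4 comparisons of diets, and a difference of 0.83 (Nppb, LP against NP) did not pass an unadjusted p under 0.05.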
